A study of Arabidopsis thaliana with 2 samples.

Results

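A set of 124 nuclear genes of Arabidopsis thaliana gave signal in the sap of both trichomes and pavement cells and read within 2-fold of each other on the 2 arrays of the study. They were selected by their measured values: a log2 signal of at least 3.5 on both arrays, and an absolute difference, trichome minus pavement, below 1 (2-fold). Of 13264 nuclear genes with a probe set naming exactly 1 gene, among 13355 such genes in all, 280 reached 3.5 on both arrays and 136 of these met both limits. The background share is therefore 1.03% of all nuclear genes and 48.6% of those at or above 3.5 on both arrays. From the 136, 12 genes that belong to other classes were left out: AT1G11860, 2 extensins, 2 leucine-rich repeat extensins and 7 genes for cytosolic ribosomal proteins. Because the values chose the genes, their evenness is a description, and no test was made of it.

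The study set sap from leaf trichomes, hairs that are each 1 epidermal cell, beside the sap of pavement cells, its flat ground cells. Plants of the Columbia-0 genotype were 5 weeks old, grown at 20 °C by day and 18 °C by night with 16 h of light, and carried no transgene named in the labels. Sap was drawn with microcapillaries, and total RNA was amplified in 1 round before labelling. Each cell type has 1 array, numbered replicate 1, with no count of cells or plants given, so no value below has a replicate error and the number of arrays limits its precision. A lower signal from fewer cells of a type in the sap and one from less RNA per cell cannot be told apart.

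Trichomes and pavement cells come from the same protodermal layer, and both carry a cuticle, a thickened outer wall and a large vacuole. Trichomes leave the cell cycle, replicate their DNA without dividing and branch, whereas pavement cells form interlocking lobes. Every living plant cell needs the machinery of protein synthesis, membrane traffic, chromatin and stress protection, whichever of these paths it takes.

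Among the evenly shared genes were 4 for protein and RNA handling, 5 for membrane traffic and autophagy, 3 for chromatin and regulation, 4 for stress and metabolism and 4 for plastid proteins encoded in the nucleus. A further 2, AILP1 and FYD, carry names whose role is not described here. The other 102 are given here by locus code alone, without a role. The annotation symbols of DEWAX and AP4M are locus codes too, so the split between named and coded genes was partly a choice. Roles were given to genes of the set alone, so these counts have no share over all nuclear genes beside them. They do not show that any class is over-represented. The keyword lists described below held none of the 124 under membrane traffic (25 nuclear genes) or chromatin (19). By biotype, 121 of the 124 are protein-coding, 2 are pseudogenes and 1 is a transcribed pseudogene. No share over all nuclear genes is given beside these biotypes either. On the trichome array the 124 genes read from 3.5 to 8.29 with a median of 3.89, and on the pavement array from 3.5 to 7.49 with a median of 4.21. Their differences ran from -0.99 to 0.81 with a median of -0.26 (quartiles -0.57 and -0.04). The trichome reading was the lower one for 95 genes and the higher one for 28, and it was identical for 1. That direction is the one of the deposited scale, on which the 280 genes at or above 3.5 on both arrays had a median difference of -0.92. After quantile normalization, a lowess correction or alignment on control probe sets, described below, 0 of the 124 were lower in trichome and all 124 higher. A probe set's brightness depends on its probes, so ranks and bands of signal below describe the arrays and do not order genes by transcript amount.

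**Figure D1:**
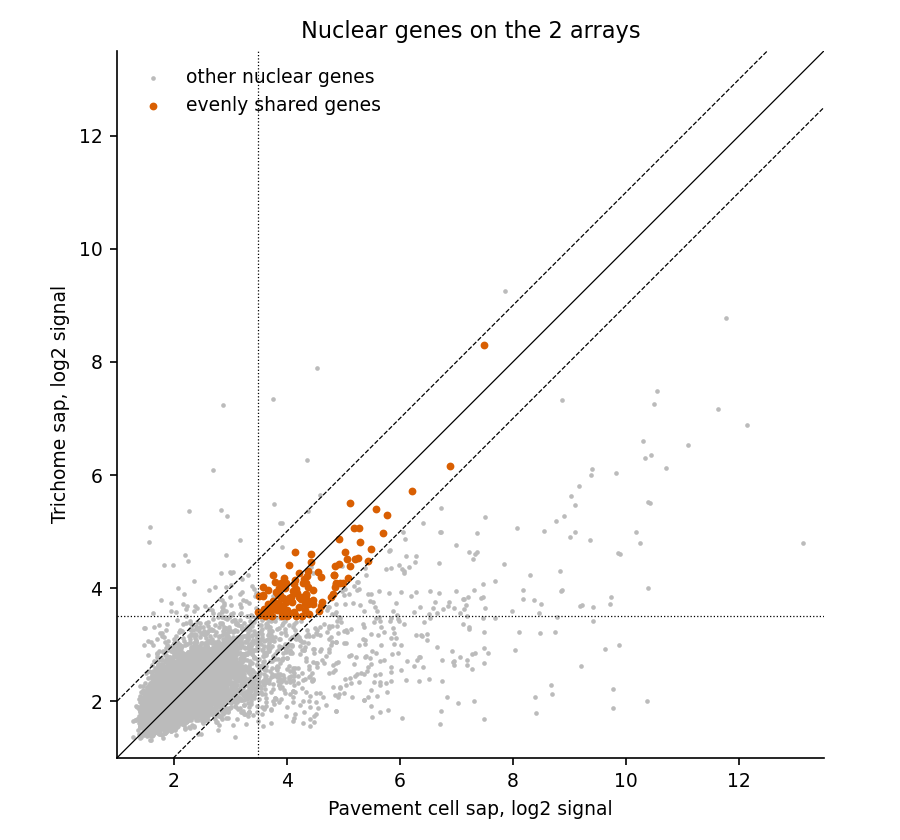
Log2 signal in trichome sap (y axis) against pavement cell sap (x axis) for each of the 13264 nuclear genes, with the 124 evenly shared genes in orange. Dotted lines mark 3.5, the solid line equality and the dashed lines a difference of 1; the orange points fill the corner between them and mostly lie under the solid line.

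In protein and RNA handling, ALATS (AT1G50200), the ligase that charges tRNA with alanine, read 5.72 in trichome and 6.21 in pavement. Its difference was -0.49, or 1.41-fold higher in pavement. MAP1C (AT1G13270), a methionine aminopeptidase that trims the first residue of new proteins, read 3.98 in trichome and 4.16 in pavement. Hop2 (AT1G62740), a co-chaperone that links the heat shock proteins HSP70 and HSP90, read 4.08 in trichome and 3.89 in pavement. The RNA-binding protein gene ATRBP45C (AT4G27000) read 3.52 in trichome and 3.74 in pavement. Of these 4 genes, 3 were lower in trichome and Hop2 was higher, and ALATS had the widest difference.

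Genes of membrane traffic lay on both sides of equality. SEC5B (AT1G21170), a subunit of the exocyst, which tethers secretory vesicles to the plasma membrane, read 5.50 in trichome, against 5.11 in pavement, which is 0.39 apart or 1.31-fold higher in trichome. ATG8G (AT3G60640), a ubiquitin-like protein joined to the autophagosome membrane, read 4.01 in trichome and 3.58 in pavement (0.43 apart). These are the 2 genes of the group with the higher trichome reading.

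AP4M (AT4G24550), the mu subunit of an adaptor complex of the trans-Golgi network, read 3.52 in trichome and 3.61 in pavement. NET1D (AT1G03080), of a plant family of actin-binding proteins, was placed in this group by judgement. It read 3.91 in trichome and 4.17 in pavement. ELC (AT3G12400), an ESCRT component that sorts ubiquitinated cargo and whose loss gives trichomes with several nuclei, read 3.85 in trichome and 4.78 in pavement. Its difference of -0.93, 1.90-fold higher in pavement, was the widest of the named genes and lies close to the limit of 1.

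The 3 genes for chromatin and regulation had the lower reading in trichome as deposited, as did 95 of all 124 genes. HTB4 (AT5G59910), a histone H2B, read 4.51 in trichome and 5.07 in pavement. DEWAX (AT5G61590), a transcriptional repressor of cuticular wax synthesis, read 3.72 in trichome and 4.37 in pavement. XERICO (AT2G04240), a small RING-type protein that raises abscisic acid when overproduced, read 3.81 in trichome and 4.34 in pavement. The differences were -0.56, -0.66 and -0.53.

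The 4 genes for stress and metabolism also had the lower deposited reading in trichome, again beside 95 of 124 in the whole set. TIL (AT5G58070), a lipocalin of the plasma membrane that protects against heat and frost, read 4.70 in trichome and 5.48 in pavement (1.72-fold higher in pavement). ALDH3F1 (AT4G36250), an aldehyde dehydrogenase, read 5.06 in trichome and 5.27 in pavement. The serine carboxypeptidase-like gene scpl26 (AT2G35780), which a keyword list described below put in protein turnover, read 3.82 in trichome and 3.93 in pavement. GLX2-5 (AT2G31350), a glyoxalase of methylglyoxal detoxification, read 4.87 in trichome and 4.93 in pavement, and its difference of -0.06 is among the narrowest of the named genes. TIL stood apart from the other members of the group, which differed by at most 0.21 in size.

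The 4 plastid genes had deposited differences from -0.42 to 0.09, within the limit that selected them. PORB (AT4G27440), a light-dependent protochlorophyllide reductase of chlorophyll synthesis, read 3.70 in trichome and 3.80 in pavement. TROL (AT4G01050), a thylakoid protein that anchors the reductase receiving electrons from ferredoxin, read 3.72 in trichome and 3.87 in pavement. EX1 (AT4G33630), the EXECUTER1 protein of singlet oxygen signalling, read 3.93 in trichome and 3.85 in pavement, so it alone of the 4 was higher in trichome. PSBY (AT1G67740), a small photosystem II protein, read 3.5 in trichome and 3.92 in pavement, and its trichome value is one of the 3 closest to the floor of 3.5.

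Other photosynthesis genes of the arrays lay outside the set, and the limits themselves made this division. A keyword list for photosynthesis and plastid matched 14 nuclear genes, of which 7 reached 3.5 on both arrays and 3 (PSBY, TROL and PORB) are evenly shared. The 4 that reached 3.5 without being evenly shared, PSBW, RCA, LHCB4.1 and LHCB4.2, read from 3.67 to 6.88 in trichome and from 8.88 to 12.1 in pavement, with differences from -5.75 to -4.90. The remaining 7 were under 3.5 on 1 array or both. Other keyword lists caught 2 evenly shared genes in protein turnover (MAP1C and scpl26), 1 in metabolism (ALDH3F1) and 1 in translation (ALATS), against 109, 180 and 1 of the nuclear genes measured. The 12 other keyword lists caught none. The largest of them, for transcription factors, held 81 nuclear genes (0.611%). No keyword matched 117 of the 124 genes (94.4%), beside 95.4% of all nuclear genes measured, because the annotation holds few words.

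**Figure D2:**
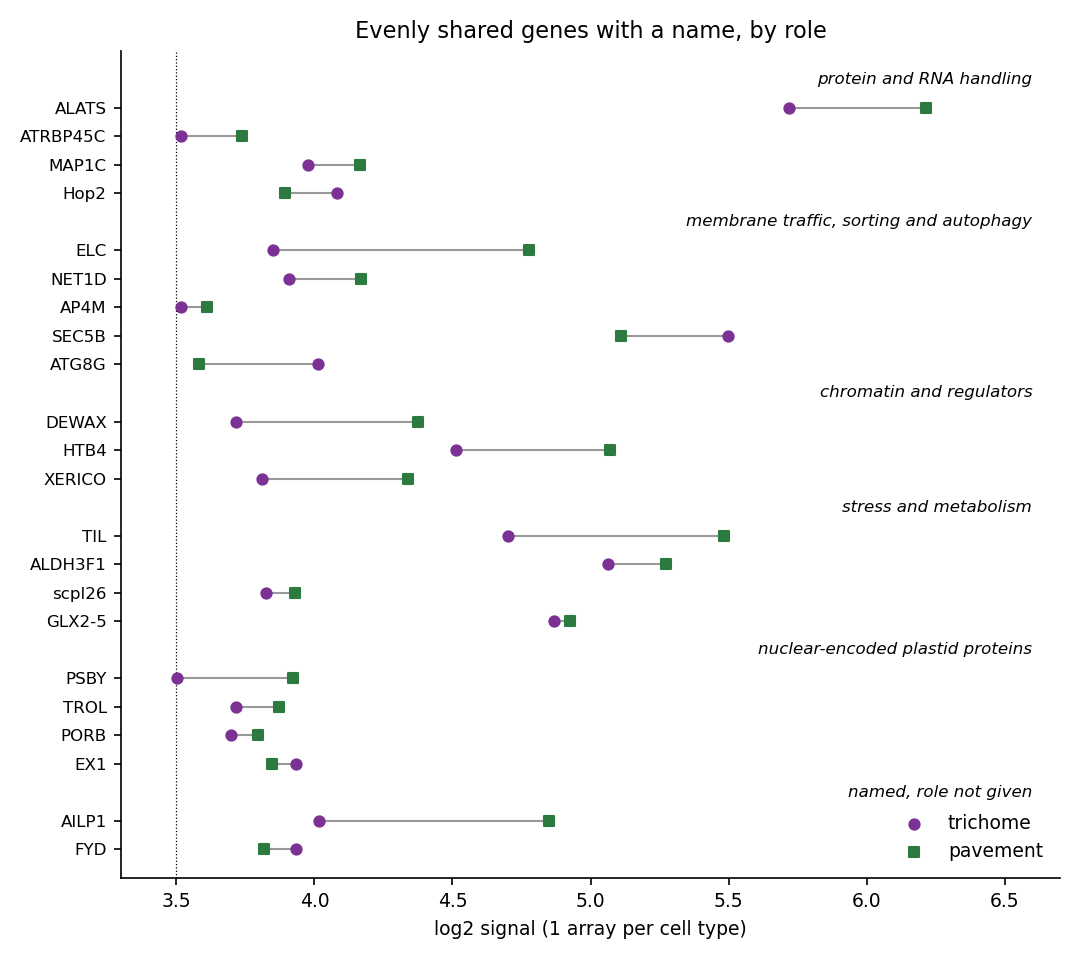
Log2 signal (x axis) of the 22 evenly shared genes given a name here, grouped by role. Trichome values are purple circles and pavement values green squares, from 1 array each. The dotted line marks the floor of 3.5; circles lie left of squares for 17 genes and right of them for 5.

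AILP1 (AT5G19140) read 4.01 in trichome and 4.85 in pavement, and FYD (AT3G12570) read 3.93 in trichome and 3.82 in pavement. Over all 22 named genes the median difference was -0.20, and over the 102 given by code it was -0.27. The named genes and the others thus had close medians. Of the 102, 78 were lower in trichome and 23 higher.

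The widest positive differences among the 124 belonged to a pseudogene, AT3G31955, and to AT2G21160, AT1G76400, ATG8G and SEC5B. AT3G31955 read 8.29 in trichome and 7.49 in pavement, and differed by 0.81. It is the 1 gene of the set measured by a probe set whose probes may match further transcripts, so the reading may belong to more than this locus. AT2G21160 read 4.64 in trichome and 4.14 in pavement, and AT1G76400 read 4.23 in trichome and 3.76 in pavement. After AT3G31955 the next difference is 0.50, and only 2 genes were higher in trichome by at least 0.5, against 36 that were lower by as much. These counts lack the classes left out. Of those, the extensins AT5G06630 (0.81) and AT5G59170 (0.99) were higher in trichome by that much. AT1G11860 (-0.71), AT2G19740 (-0.58) and AT4G25740 (-0.59) were lower by that much.

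On the pavement side the set reaches its limit without a gap. AT4G30310 read 3.59 in trichome and 4.58 in pavement, and its difference was -0.99. AT4G34950 read 4.48 in trichome and 5.44 in pavement, and ELC, AT3G27090 and AT4G19860 had differences of -0.93, -0.92 and -0.91. Just outside the limit were AT5G20050, AT1G07080 and AT2G31090, with differences of -1.03, -1.03 and -1.05. On the trichome side the nearest genes outside were AT1G22890 at 1.05, AT5G23670 at 1.23 and AT2G30270 at 1.27. At the floor, AT1G03610 (3.57 in trichome and 3.5 in pavement), PSBY and AT1G68660 (3.51 in trichome and 4.27 in pavement) lay just inside. AT1G64430, AT1G54270 and AT1G07240 were left out with trichome readings of 3.48, 3.47 and 3.47. The limits thus cut through a continuous range on the pavement side and at the floor. On the trichome side the gap below the limit comes in part from leaving out the extensins AT5G06630 (0.81) and AT5G59170 (0.99).

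Well inside the limits, 20 of the 124 genes differed by less than 0.1 and 50 (40.3%) by less than 0.25. AT1G20220 read 3.53 on both arrays, equal to every deposited decimal. AT2G41250 read 4.14 in trichome and 4.15 in pavement, AT3G14280 read 3.88 in trichome and 3.87 in pavement, and AT3G56880 read 3.87 in trichome and 3.85 in pavement. AT4G34630, AT5G21020, AT3G59980 and AT4G24880 differed by 0.02, 0.03, -0.04 and 0.04. Within 0.5 lay 86 genes (69.4%). For scale, differences varied with a pooled SD of 0.52 among probe sets of one gene, over 145 nuclear genes, most of them at background, and 88 of the 124 genes differed by less than that. At or above 3.5 on both arrays only 1 gene, AT1G21580, has over 1 probe set, and its SD was 2.10. The SD of 0.52 may therefore not hold at the signal of the set. Neither SD covers the spread between plants, samplings and amplifications.

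Most of the set is measured once: 123 of the 124 genes have 1 probe set. The exception, AT1G21580, has 2 that disagree. One read 6.15 in trichome and 8.33 in pavement and differed by -2.18, and the other read 2.88 in trichome and 2.09 in pavement and differed by 0.79. Their mean, 4.52 in trichome and 5.21 in pavement, placed the gene in the set although neither probe set meets both limits. With the brighter probe set alone AT1G21580 leaves the set.

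Among the genes with the highest mean signal, differences covered most of the allowed range. AT3G07230 read 6.17 in trichome and 6.89 in pavement, AT1G26270 read 5.29 in trichome and 5.77 in pavement, and AT1G19110 read 5.39 in trichome and 5.58 in pavement. AT4G37830 read 4.98 in trichome and 5.70 in pavement, AT3G12350 read 5.06 in trichome and 5.19 in pavement, and AT5G20500 read 4.81 in trichome and 5.29 in pavement. With AT3G31955, ALATS, SEC5B, ALDH3F1, TIL and AT4G34950 these form the 12 with the highest mean signal, of which 10 were lower in trichome. The other genes sit nearer the floor: 54 of the 124 had a mean level under 4 and 113 under 5.

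The share of evenly shared genes varied with mean level, highest from 4 to 4.5 and lower in each band above it. Among nuclear genes with a mean level from 3.5 to 4, 54 of 200 (27.0%) were evenly shared, and the median difference of all 200 was -0.80. From 4 to 4.5 the count was 44 of 124 (35.5%), with a median difference of -1.31 over all genes, and from 4.5 to 5 it was 15 of 77 (19.5%), with -2.10. From 5 to 6 it was 9 of 87 (10.3%), with -3.04, and from 6 to 8 it was 2 of 46 (4.35%), with -4.51. Since the set was selected for differences near 0, its place above these medians follows from the rule and is no finding about its genes. A gene with a mean just above 3.5 can also lie under the floor on either array. The shares by band therefore depend on the rule as well.

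**Figure D3:**
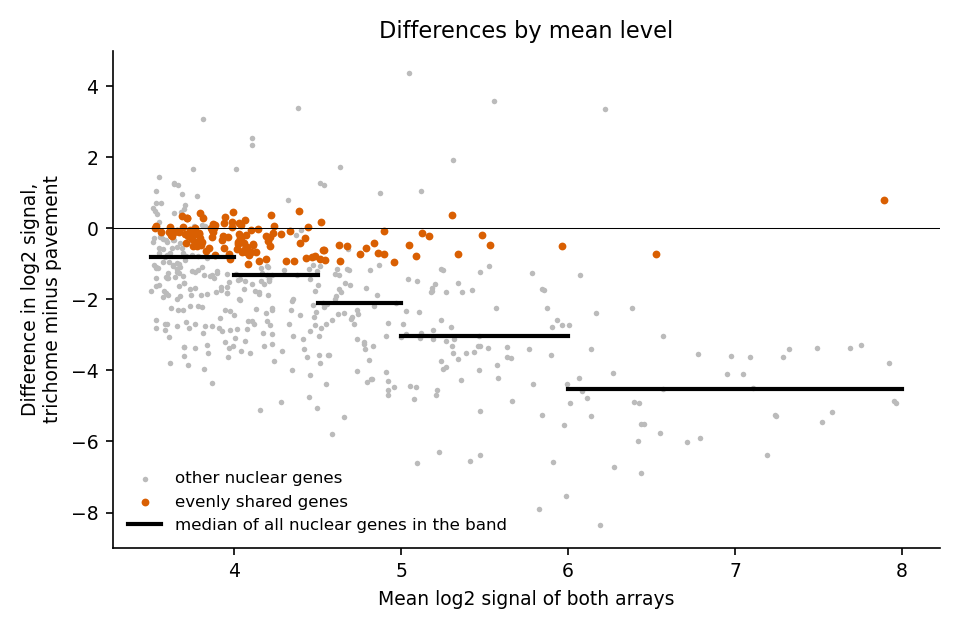
Difference in log2 signal, trichome minus pavement (y axis), against mean log2 signal of both arrays (x axis) for nuclear genes with a mean from 3.5 to 8, with the evenly shared genes in orange. Black bars give the median of all nuclear genes in each band, which runs from -0.80 in the dimmest band to -4.51 in the brightest.

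The 280 nuclear genes at or above 3.5 on both arrays split into genes within 2-fold (48.6%), 136 genes 2-fold or more lower in trichome (48.6%) and 8 genes 2-fold or more higher in trichome (2.86%). In trichome the evenly shared genes had a median of 3.89 and the 136 pavement-high genes one of 4.0, and in pavement the medians were 4.21 and 6.99. The limit on the difference made this split, so these medians describe it and support nothing. The evenly shared genes were 34.9% of the 355 nuclear genes at or above 3.5 in trichome and 16.5% of the 751 in pavement.

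Whether these genes count as even depends on the scale between the arrays. The 18 probe sets for hybridisation controls, bacterial and phage transcripts usually added in known amounts, differed by a median of -3.15, with a range from -3.54 to -1.94, and read 6.88 or more on both arrays. The 27 probe sets for Bacillus subtilis transcripts, which served as background, read from 1.52 to 2.58. Alignment of the arrays on the hybridisation controls adds 3.15 to every gene alike, so genes selected within 1 of 0 necessarily move out of the limit. The 124 genes then had differences from 2.16 to 3.96, beside a median of 3.17 over all nuclear genes. That shift was not measured at the lower signals of most of these genes.

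With quantile normalization, which gives both arrays one distribution, the median difference of the 124 genes was 1.27, and 92 of them were 2-fold or more higher in trichome. When differences were corrected for mean level by lowess, the median was 1.00, and 62 genes were within 2-fold. On both of these scales all 124 genes had a difference above 0, from 0.35 upward, beside medians of 0.88 and 0.83 for the 280 genes at or above 3.5 on both arrays. Because the genes were selected near 0 where most genes of like signal were lower in trichome, a positive difference after such corrections follows in part from the selection. In ranks among the 13264 nuclear genes, the median place of the 124 was 192.5 in trichome and 451.5 in pavement, and every one ranked nearer the top in trichome, where fewer genes reached 3.5 (355, against 751 in pavement). Quantile normalization left 32 of the 124 genes within 2-fold.

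The same rescaling moved the named genes unequally. SEC5B had a difference of 3.07 after quantile normalization and 3.01 after lowess, and ALATS 2.54 and 2.80. GLX2-5 reached 2.32 and 2.15, and HTB4 1.69 and 1.54. At lower mean level EX1 reached 1.59 and 1.21, and PORB 1.18 and 0.88. The named genes that stayed within 2-fold on both of these scales were DEWAX (0.81 and 0.64), ELC (0.79 and 0.67), PSBY (0.68 and 0.53), ATRBP45C (0.83 and 0.64) and AP4M (0.93 and 0.70).

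**Figure D4:**
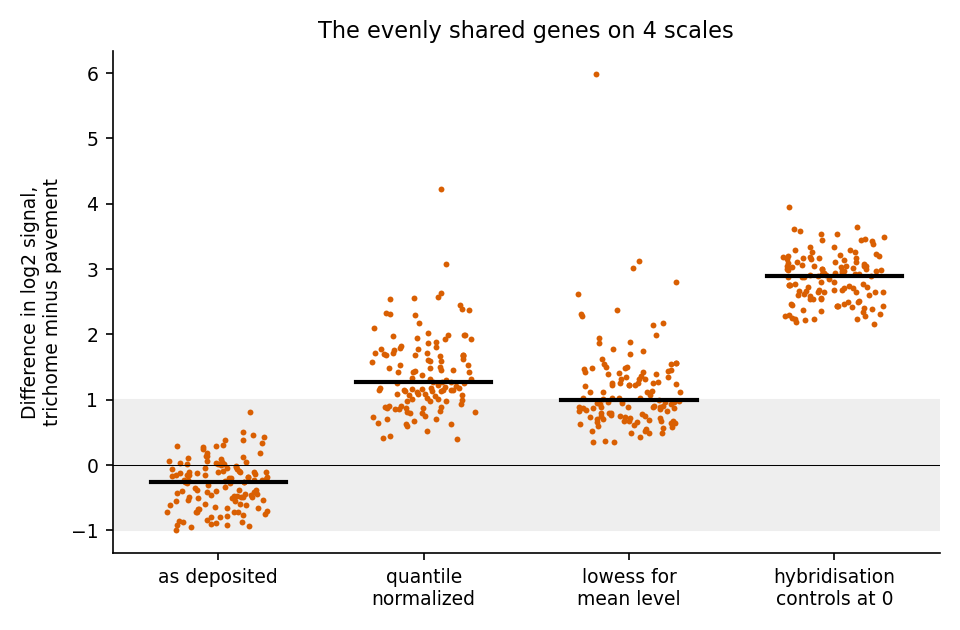
Difference in log2 signal, trichome minus pavement (y axis), of each of the 124 evenly shared genes (points) on 4 scales (x axis), with the median as a black bar and differences within 1 shaded. The median is -0.26 as deposited and 1.27, 1.00 and 2.89 on the other scales, where every point lies above 0, as the selection near 0 on the deposited scale favours.

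The cell type labels could be checked only in part. Of 14 trichome regulators listed, 4 (GIS, ATMYC1, SIM and TRY) had a named probe set. They read from 1.82 to 2.79 in trichome and from 1.70 to 2.10 in pavement, all under 3.5. Of the 4, only SIM (2.79 in trichome, 2.06 in pavement) exceeded the highest background reading of 2.58, and only in trichome. ACR4, the 1 epidermal gene measured of 12, read 2.08 in trichome and 1.68 in pavement. The 4 mesophyll genes measured of 12 (RCA, PSAE-1, LHCB4.1 and LHCB4.2) read from 3.67 to 3.97 in trichome and from 8.85 to 9.42 in pavement. Their part in the evenness of the 124 genes was not tested. The 3 stomatal lineage genes measured, of 9 names listed, read from 2.62 to 2.96 in trichome and from 1.99 to 2.06 in pavement, and SWEET11, the 1 vascular gene of 9, read 2.08 in trichome and 2.14 in pavement. No gene of these lists is among the 124.

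By locus code the 124 genes lie on all 5 chromosomes: 31 on chromosome 1 (25%, against 25.8% of nuclear genes measured), 15 on chromosome 2 (12.1% against 16.4%), 28 on chromosome 3 (22.6% against 20.6%), 25 on chromosome 4 (20.2% against 14.6%) and 25 on chromosome 5 (20.2% against 22.5%). Genes next to them in the annotation gave little signal. Of 107 measured neighbours, 3 reached 3.5 on both arrays (2.80%, against 2.11% of all nuclear genes). The neighbours' medians were 2.04 in trichome and 2.04 in pavement. A single pair of the set, AT1G02150 (3.64 in trichome and 3.59 in pavement) and AT1G02160 (3.54 in trichome and 4.40 in pavement), lies side by side. Each gene of this pair is counted among the 3 as the neighbour of the other, although the rule itself put both above 3.5. The only one of the 3 outside the set is the neighbour of PORB, AT4G27450. It read 4.64 in trichome and 7.37 in pavement, so it did not share the even reading of PORB.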

How the data were processed

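Signal was measured on 2 Affymetrix arrays, 1 of trichome and 1 of pavement cell sap. The values were deposited as log2 signals, 1 per probe set. RMA is the tool that the submitters' processing notes name. Its version and settings are not given in these sources. The deposited values of the 2 arrays do not share the same distribution. At or above the floor were 355 nuclear genes in trichome and 751 in pavement, and the highest nuclear gene read 9.26 in trichome and 13.1 in pavement. Quantile normalization moved the median difference of the evenly shared genes from -0.26 to 1.27. The deposited values are therefore not to be read as quantile-normalized together. The log2 scale was read from the range of 1.28 to 14.2. Genes were named through the platform annotation of 2016 and the RefSeq table of assembly TAIR10.1: 13513 of 22810 probe sets name 1 gene, 13436 of these were matched, and probe sets of a gene were averaged. The RefSeq table was used for names, biotypes and neighbours. Genes of the classes left out were recognised by locus code from general knowledge.

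The genes, lists and keyword groups were chosen with earlier results of these data known. With 1 array per group no p-value was computed. Named genes were the 22 given a name here, the 12 highest in mean signal, the 8 nearest 0 and the 5 widest each way. Any gene with over 1 probe set and the 3 on either side of each limit were also named. Alternatives changed the floor, the limit, the probe sets and the scale. Python 3.11.15, pandas 2.3.3 and statsmodels 0.14.6 (lowess, fraction 0.3) were used, and the selection was tested on simulated data. Planned comparisons of promoters and protein lengths were not made, since those sequences were not used here.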

Additional observations from a re-analysis of the deposited data

Results flagged for a closer look

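Signal of the same kind appeared outside the named genes. Among 8730 plant probe sets with no gene listed, 278 reached 3.5 on both arrays, and 118 of these (42.4%) met the same limit on the difference. Among 503 probe sets that name several genes, 18 reached 3.5 on both arrays and 3 were within the limit; none of the 503 names one of the 124 genes, so they give no second reading of the set. The hybridisation controls drew attention because their median difference was -3.15 while the limits of the set allow less than 1 either way. The groups hold 1 array each, so no sample could be compared with others of its group.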

How the results depend on the processing

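The number of evenly shared genes, 124, was 291 with a floor of 3 and 43 with a floor of 4. It was 188 with the trichome array raised to the hybridisation controls, where the floor no longer removes genes on that array. Under the 8 other settings it stayed between 86 and 176. Of the 124 genes, 43 passed again with a floor of 4, 25 after quantile normalization, 62 after lowess and 0 on the hybridisation controls. As a share of genes at or above the floor on both arrays, 44.3% became 54.3% and 36.1% with floors of 3 and 4, 30.7% and 55.7% with limits of 0.5 and 1.5, 54.8% with quantile normalization, 55% with lowess and 25% on the controls. The median difference of the genes selected, -0.26, was 0.58 with lowess, 0.26 on the controls and 0.08 with quantile normalization, which turned its sign in all 3 cases. It was -0.42 with a floor of 4, -0.41 with a limit of 1.5 and -0.15 with a limit of 0.5. With the brightest probe set 125 genes were selected and without probe sets that can share probes 123. Chosen after the data were seen, keeping the leucine-rich repeat extensins and a possible ribosomal pseudogene gave 127, and leaving out values repeated on an array gave 121. No paired analysis was possible because each group holds 1 array. Alternatives planned for promoter motifs were not run. The signals carry no detection call, and the genes nearest the floor lie less than 1 above the highest background reading of 2.58.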

Other observations

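Relatives of the named genes were picked by their symbols after the values were seen. Of them, ATG8F (1 of 6 relatives of ATG8G) and PSBW (1 of 2 of PSBY) reached 3.5 on both arrays. No relative in the other families did, the largest being 28 relatives of scpl26. Among all nuclear genes 2.11% did so. The named genes were selected for signal on both arrays and their relatives were not. Contrasts between them therefore follow from the rule and are no finding about the families. Of 6 other ATG8 genes measured, ATG8F, a further ubiquitin-like autophagy protein, read 5.27 in trichome and 8.90 in pavement and differed by -3.63, whereas ATG8G differed by 0.43. ATG8C read 2.96 in trichome and 3.95 in pavement. The RNA-binding protein gene RBP45B read 3.12 in trichome and 5.85 in pavement (-2.73), beside -0.22 for ATRBP45C. The 7 other aldehyde dehydrogenase genes measured were under 3.5 in trichome and read from 2.10 to 6.74 in pavement. Higher in pavement were ALDH7B4 (2.36 in trichome and 6.74 in pavement), ALDH10A8 (1.84 in trichome and 5.80 in pavement) and ALDH11A3 (2.61 in trichome and 6.42 in pavement), among others. ALDH22A1 (2.51 in trichome and 2.10 in pavement) and ALDH6B2 (1.94 in trichome and 2.63 in pavement) were low on both arrays. ALDH3F1 differed by -0.21.

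In the H2B, Hop, GLX2 and exocyst families the relatives measured were near background. Most nuclear genes lay there too, with an upper quartile of 2.30 on each array. The 3 other H2B genes (HTB1, HTB2 and HTB11) read at most 2.27 in trichome and 1.85 in pavement. Hop1 and Hop3 read at most 1.85 in trichome and 1.79 in pavement, and GLX2-1 and GLX2-4 at most 2.19 in trichome and 2.01 in pavement. The 6 other exocyst genes measured, SEC5A included, read at most 2.55 in trichome and 2.43 in pavement. Of 28 other serine carboxypeptidase-like genes the highest readings were 2.64 in trichome and 3.73 in pavement, the second for scpl46. NET1B read 3.23 in trichome and 3.97 in pavement, beside NET1D, and CHL, a lipocalin of the plastid, read 2.97 in trichome and 4.01 in pavement, beside TIL.

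Values repeated on an array touched few of the 124 genes. On the pavement array AT3G62400 (4.95), AT1G02160 (4.40) and AT5G14030 (4.46) had values that also occurred for another probe set, and on the trichome array no gene of the set did.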
